A study of Homo sapiens with 12 samples.

Results

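The nuclear genes of the mitochondrial respiratory chain were followed in RD cells, an established line from an embryonal rhabdomyosarcoma, across a fusion construct and its ligand. Members were the genes whose only array symbol began with NDUFA, NDUFB, NDUFC, NDUFS, NDUFV or UQCR, the genes SDHA to SDHD, and those beginning with COX4 to COX8. The rule found 56 genes, read by 77 probe sets, among 11963 genes with a single symbol on 22215 probe sets. Each gene is described by its brightest probe set. They comprised 28 subunits of complex I, 3 of complex II, 6 of complex III and 13 of complex IV. The prefix also took in 5 assembly factors of complex I (NDUFAF1, NDUFAF3, NDUFAF4, NDUFAF5 and NDUFAF7) and 1 antisense RNA, NDUFB2-AS1. A further 7 probe sets carried a member's symbol beside another and were left out. SDHB and UQCRFS1 were not analysed here.

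The cells carried either PAX3-FKHR-ER or pK1. PAX3-FKHR-ER is the fusion transcription factor of alveolar rhabdomyosarcoma joined to a modified ligand binding domain of the estrogen receptor, which holds the fusion inactive until 4-hydroxytamoxifen (4-OHT) binds. pK1 is the vector alone. Each construct was measured after 24 h with 30 nM 4-OHT and without it, in 4 groups of 3 Affymetrix U133A arrays, and the replicates are numbered 1 to 3 in the labels. All groups share the RD background and transduction, so a single line stands for the tumour type. The design speaks of 3 populations per construct, but the labels do not say whether a number marks one. The p-values measure only the spread between these arrays, part of which may be technical.

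The respiratory chain sits in the inner mitochondrial membrane. Complex I takes electrons from NADH and complex II from succinate, and both pass them to ubiquinone; complex III hands them to cytochrome c, and complex IV reduces oxygen. Complexes I, III and IV pump protons, and ATP synthase uses the gradient. Complexes I, III and IV combine nuclear subunits with a core encoded in mitochondrial DNA, whereas complex II is wholly nuclear, and muscle uses its own isoforms of several complex IV subunits.

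Values are deposited MAS5 signals on a linear scale, where probe sets of different genes cannot be compared in level. Differences are on the log2(signal + 16) scale, which understates those of dim genes. Of the 56 members, 52 passed the filter on mean signal and were tested. COX7A1, NDUFAF5, NDUFAF7 and NDUFB2-AS1 did not, with signals of 1.54 to 10.7, 1.83 to 24.1, 1.85 to 28.8 and 8.94 to 52.4 over the 12 arrays. Because each signal averages a culture, fewer cells expressing a gene and less RNA per cell cannot be told apart. Of 10 muscle markers, 7 passed the filter, with MYOD1 at a median of 1111, while MYF5, MYF6 and PAX7 did not. Among the 7, MYOG had a median of 34.2 (8.82 to 298) and CHRND ran from 2.61 to 557, so both were dim on some arrays. Of 12 markers of epithelial, blood, endothelial and neural cells, only CD3E and PECAM1 passed, with highest signals of 96.8 and 84.3. The highest signals of the other 10 ran from 4.03 (the endothelial CDH5) to 64.5 (the epithelial KRT5).

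The arrays of replicate 1 stood apart, and 45 of 52 respiratory chain genes had a lower mean on them than on the others. The poly-A spike-in probe sets had medians of 2.58 to 7.41 on the 4 arrays of replicate 1 and of 118 to 291 on the other 8. The trimmed mean signal was 150 on every array, so the deposited values were already on a common scale. On that scale the median signals over all probe sets were similar, 50.4 to 62.8, and this is partly built in. Relative to each gene's own mean over the 12 arrays, the median member lay at -0.24, 0.03 and 0.05 log2 on replicates 1, 2 and 3 of PAX3-FKHR-ER without 4-OHT, and at -0.29, 0.16 and 0.05 with 4-OHT. For pK1 it lay at -0.31, 0.30 and 0.10 without 4-OHT and at -0.44, 0.49 and 0.02 with it. The median of all probe sets tested stayed between -0.03 and 0.06. In each of the 4 groups the median member was thus lowest on replicate 1.

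**Figure D1:**
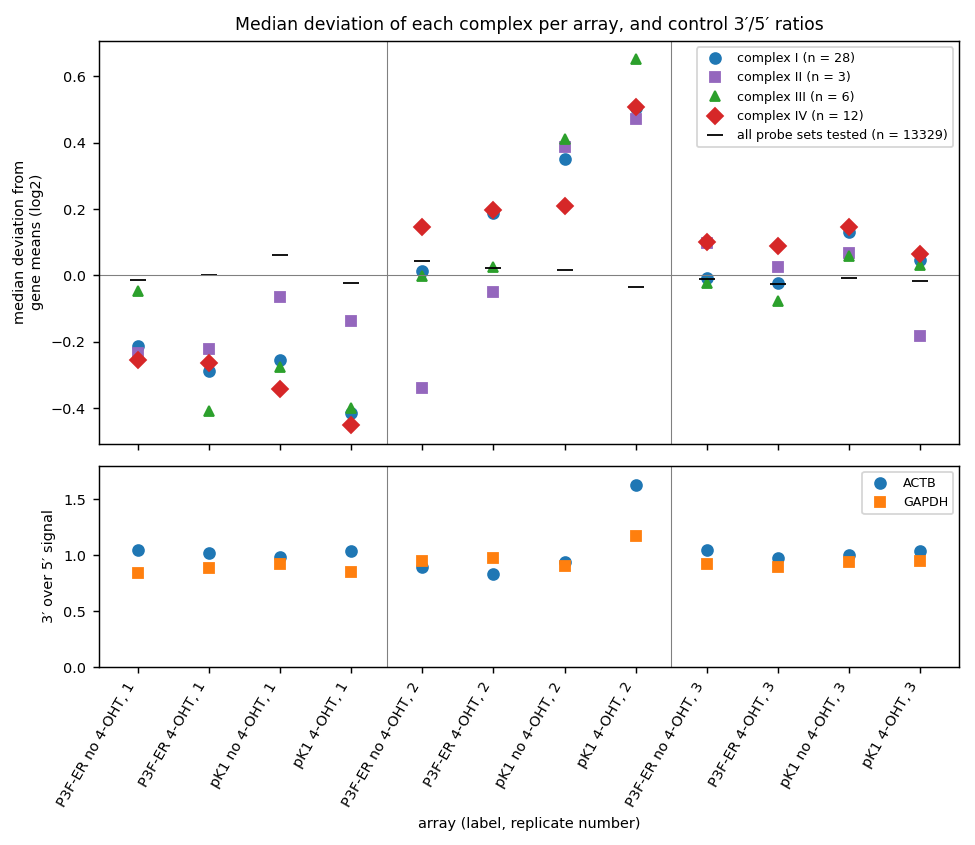
Median log2 deviation of the members of each complex from their own 12-array means, by array (P3F-ER is PAX3-FKHR-ER), with all probe sets tested as dashes; the lower panel gives the 3′ to 5′ signal ratios of ACTB and GAPDH. Complex IV lies at -0.25 to -0.45 on the replicate 1 arrays, and complex III reaches 0.65 on pK1 with 4-OHT replicate 2, where the ACTB ratio is 1.62.

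A comparison of replicate 1 with replicates 2 and 3 was added after this pattern was seen. It was fitted to the means of the 6 pairs of arrays sharing construct and number, with a term for construct. Same-numbered arrays deviated together across constructs, most for replicate 1 (correlations of 0.69 without and 0.57 with 4-OHT). The correlations were 0.46 and 0.35 for replicate 3 and only 0.15 and 0.18 for replicate 2. The 6 means are thus not independent, and the p-values on them are too small. The median difference was -0.44 over the 52 members and 0.00 over all probe sets tested, and 45 of 52 members were lower, against 49.5% of all probe sets. The 4 arrays of replicate 1 lay below all 8 others for 21 members, against 10.3% of all, and above them for 4, against 11%. Complex I had a median of -0.43 with 23 of 28 lower, complex III -0.42 with 5 of 6, and complex IV -0.57 with 11 of 12. The complex III count includes UQCRB, at only -0.08 by its brightest probe set. Another tested probe set of UQCRB pointed the other way, at 177 to 239 on replicate 1 and 81.4 to 159 elsewhere. Its remaining tested probe set overlapped. How often the probe sets of a gene disagreed in this comparison was not counted. All 3 subunits of complex II (median -0.24) and all 3 tested assembly factors (median -0.43) were lower. Among 1534 probe sets as bright as the members' middle range, with mean signals of 457 to 1245, the median was -0.02 and 51.1% were lower. In that range replicate 1 lay below all other arrays for 16.8% and above them for 15.9%.

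In this comparison 7 members were called lower at an adjusted p under 0.05 (limma), against 4.46% of all probe sets tested, and 1 was called higher, against 4.16%. NDUFB1, an accessory subunit in the membrane arm of complex I, had signals of 384, 393, 322 and 337 on replicate 1 and of 695 to 1502 on the other 8 arrays. Its difference was -1.37 ± 0.24 (SE, adjusted p = 0.0193, limma). NDUFS7, the subunit that holds the last iron-sulfur cluster before ubiquinone, had 230, 227, 240 and 203 against 331 to 589 (-0.95 ± 0.20, adjusted p = 0.0327). In neither gene did the arrays of replicate 1 overlap the others. The membrane arm subunits NDUFB8 (-0.86) and NDUFB6 (-0.81) completed complex I, with adjusted p of 0.0392 and 0.0436. Fitted to the 3 means by number, with replicate 1 assumed to vary like the other two, limma called 4 members lower and 0 higher, against 8.07% of all probe sets. At an unadjusted p under 0.05 that fit had 23 members, against 23.4% of all. Its calls were NDUFB1 (adjusted p = 0.0137, limma), NDUFAF3 (0.0242), the complex I subunit NDUFA1 (0.0456) and NDUFS7 (0.0485). Of the 8 members called on pair means, only NDUFB1 and NDUFS7 were also called by number. Both fits use the same arrays and give the same differences, so the fit by number is not separate support. It leaves 1 residual degree of freedom.

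The other 3 came from 3 different complexes. SDHD, a membrane anchor of complex II, had signals of 254, 222, 172 and 224 on replicate 1 and of 355 to 424 elsewhere (-0.78 ± 0.17, adjusted p = 0.0393, limma). UQCRQ, a small subunit of complex III, had 786, 756, 777 and 812 against 1243 to 2317 (-0.90 ± 0.19, adjusted p = 0.0359). COX6A1, the widely expressed isoform of a complex IV subunit, had 1459, 1745, 1647 and 1436 against 2432 to 3345 (-0.78 ± 0.15, adjusted p = 0.0260). All 3 were separated from the other arrays without overlap. By number their adjusted p was 0.0921, 0.0667 and 0.0952.

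The chain did not move as a block. UQCRC2, a core subunit of complex III, had signals of 1652, 1450, 1363 and 1401 on replicate 1 and of 657 to 1012 on the other 8 arrays, higher by 0.84 ± 0.19 log2 (SE, adjusted p = 0.0392 on pair means and 0.0762 by number, limma). Its second probe set also separated the arrays, at 997 to 1281 against 492 to 804. UQCRC1, its partner in complex III, pointed the other way without passing the test, at 467 to 680 against 773 to 1569 (-0.73 ± 0.27, adjusted p = 0.134). NDUFA9 (0.69), NDUFAB1 (0.60), which is the mitochondrial acyl carrier protein, and NDUFV2 (0.54), an iron-sulfur subunit, were also above all other arrays on replicate 1, with adjusted p of 0.0559, 0.0747 and 0.0890. COX7A2L, NDUFB4 and NDUFA5 were the other members with positive differences, of 0.45, 0.28 and 0.28.

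**Figure D2:**
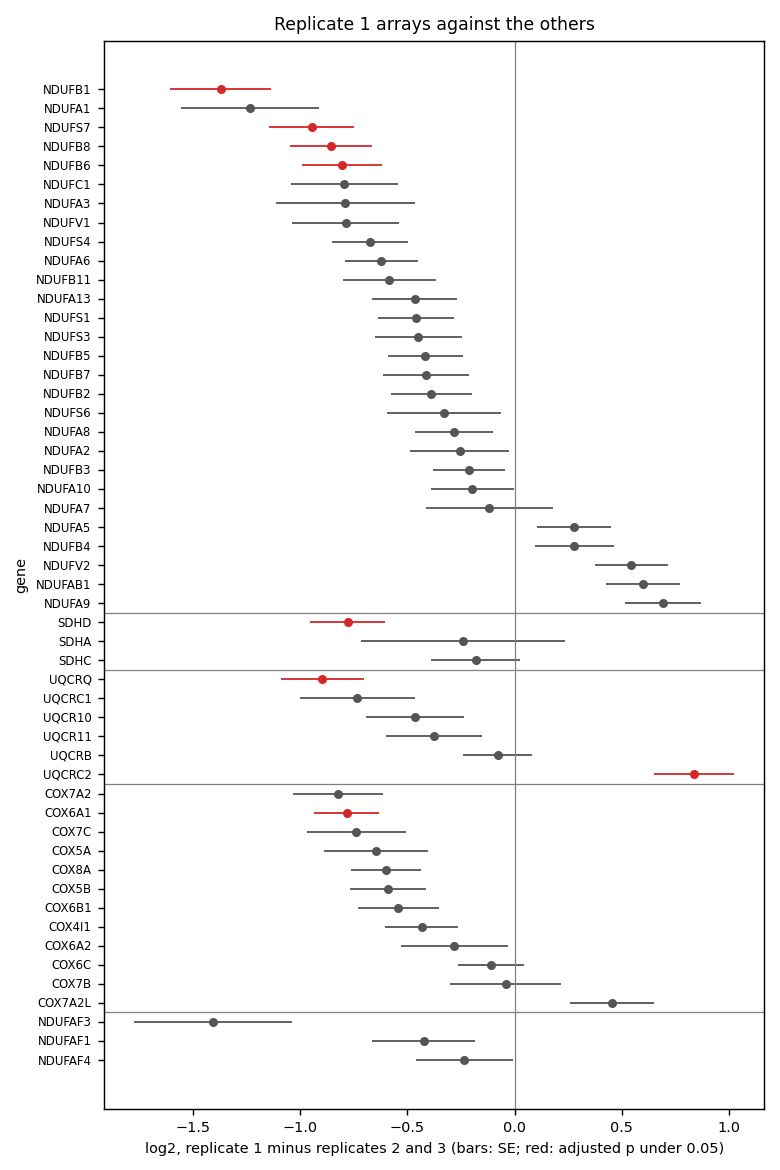
Log2 difference between replicate 1 and replicates 2 and 3 for each of the 52 tested members, ordered within complexes I to IV and the assembly factors; bars are standard errors and red marks an adjusted p under 0.05 on pair means. Of the 52 points 45 lie left of 0, from NDUFAF3 at -1.41, and UQCRC2 lies farthest right at 0.84.

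The low signals on replicate 1 were present under both constructs, with medians of -0.32 for PAX3-FKHR-ER (39 of 52 lower) and -0.61 for pK1 (45 of 52). Against replicate 3 alone the median was -0.37. Without the pK1 replicate 2 arrays it was -0.38, and 14 members were called lower and 3 higher, with 18.1% of all probe sets called. Quantile normalization gave -0.44 and equal array medians -0.40, each with 45 of 52 lower. The low spike-in signals fall on exactly the replicate 1 arrays. Their part in these values cannot be told apart from anything else particular to replicate 1, and it was not tested.

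At the other extreme, pK1 with 4-OHT replicate 2 was the highest of the 12 arrays for 27 of 52 members, against 12.3% of all probe sets. SDHA, the flavoprotein of complex II, had signals of 751 and 887 on the pK1 replicate 2 arrays without and with 4-OHT and of 166 to 304 on the other 10. Its probe set is of a class that can read near-identical copies, so the reading is uncertain. NDUFAF3 had 881 and 696 on those arrays and 142 to 425 elsewhere. The 3′ to 5′ signal ratio of ACTB, a measure of RNA integrity, was 1.62 on pK1 with 4-OHT replicate 2 and 0.833 to 1.05 on the other 11 arrays; that of GAPDH was 1.17 against 0.842 to 0.978. Its part in the members' values was not tested.

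**Figure D3:**
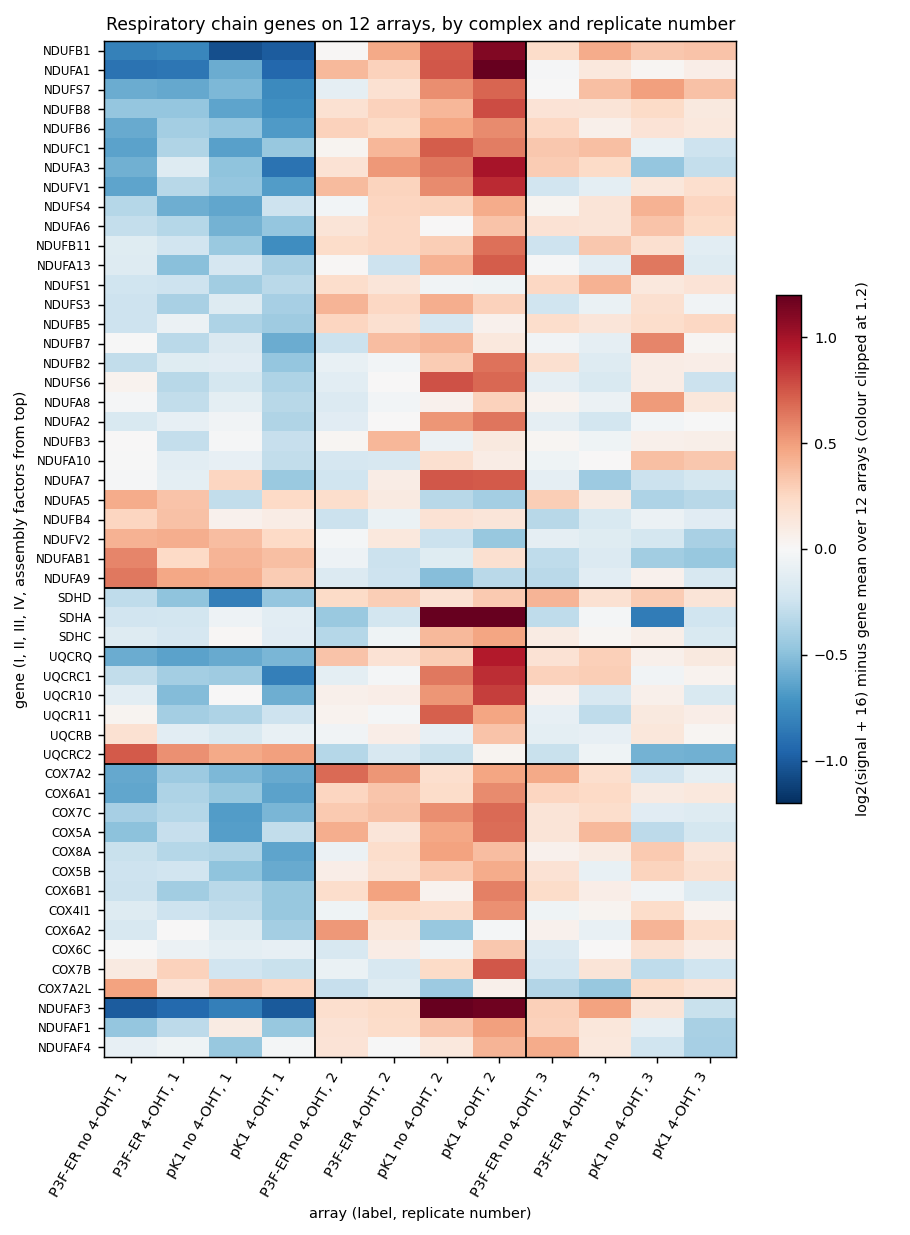
Log2 deviation of each tested member from its own 12-array mean, with arrays in columns by replicate number and group and genes in rows by complex. The 4 replicate 1 columns are mostly low, UQCRC2, NDUFA9, NDUFAB1 and NDUFV2 are the reverse, and pK1 with 4-OHT replicate 2 is the highest array for 27 of the 52 members.

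Promoter sequence is shown for all 8 members called on pair means, 7 lower and 1 higher, and for COX6A2 as the muscle counterpart of COX6A1. RefSeq promoters (GRCh38.p14) were matched by symbol for 51 of the 56 members, and the 250 bases before the annotated start were searched on both strands, with the first entry taken where a gene had several, as NDUFB8 did. NRF1, the nuclear respiratory factor, binds a core searched as CGCATGCGC; GABP, an ETS factor, binds CCGGAAG; YY1 binds AAGATGGC. CGCATGCGC was found in 5 of 51 members (9.8%) and in 1.78% of 27305 promoters, and CCGGAAG in 13 (25.5% against 8.82%). AAGATGGC was in 0 of 51 upstream stretches (1.37% of all), but in 7 when the 50 bases after the start were included (13.7% against 3.03%). These are letter matches and describe the windows only. The stretches lie at chr12:120437863-120438112 on the plus strand (COX6A1), chr11:112086623-112086872 on the plus strand (SDHD), chr19:1383657-1383906 on the plus strand (NDUFS7), chr5:132866392-132866641 on the plus strand (UQCRQ), chr14:92121707-92121956 on the minus strand (NDUFB1), chr9:32573160-32573409 on the minus strand (NDUFB6), chr10:100529924-100530173 on the minus strand (NDUFB8), chr16:21953111-21953360 on the plus strand (UQCRC2) and chr16:31428361-31428610 on the minus strand (COX6A2). Each is read 5′ to 3′ along its gene, with motif matches on either strand in capitals.
COX6A1: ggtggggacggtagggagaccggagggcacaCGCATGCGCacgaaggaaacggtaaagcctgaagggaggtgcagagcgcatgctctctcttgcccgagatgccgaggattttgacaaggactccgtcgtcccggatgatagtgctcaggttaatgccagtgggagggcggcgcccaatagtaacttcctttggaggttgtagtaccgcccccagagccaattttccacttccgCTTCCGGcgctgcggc
SDHD: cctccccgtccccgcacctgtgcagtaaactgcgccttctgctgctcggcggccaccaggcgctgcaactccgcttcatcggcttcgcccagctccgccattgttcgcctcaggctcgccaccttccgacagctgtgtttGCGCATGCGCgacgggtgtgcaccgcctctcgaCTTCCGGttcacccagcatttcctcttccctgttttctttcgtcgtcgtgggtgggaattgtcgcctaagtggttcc
NDUFS7: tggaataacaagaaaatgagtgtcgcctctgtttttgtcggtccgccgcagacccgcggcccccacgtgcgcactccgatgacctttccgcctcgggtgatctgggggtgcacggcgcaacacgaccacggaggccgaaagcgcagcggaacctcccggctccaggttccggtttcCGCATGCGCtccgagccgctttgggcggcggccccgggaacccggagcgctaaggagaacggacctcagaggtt
UQCRQ: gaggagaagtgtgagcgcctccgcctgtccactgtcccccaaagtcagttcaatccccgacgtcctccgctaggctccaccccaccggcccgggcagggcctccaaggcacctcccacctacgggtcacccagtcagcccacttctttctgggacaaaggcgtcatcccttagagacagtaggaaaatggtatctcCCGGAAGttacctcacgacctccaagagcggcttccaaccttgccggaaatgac
NDUFB1: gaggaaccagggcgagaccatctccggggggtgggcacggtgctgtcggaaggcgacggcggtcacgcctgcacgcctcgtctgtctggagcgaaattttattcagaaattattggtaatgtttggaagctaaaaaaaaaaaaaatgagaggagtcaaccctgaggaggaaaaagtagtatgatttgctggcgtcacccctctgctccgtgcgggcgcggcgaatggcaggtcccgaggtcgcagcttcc
NDUFB6: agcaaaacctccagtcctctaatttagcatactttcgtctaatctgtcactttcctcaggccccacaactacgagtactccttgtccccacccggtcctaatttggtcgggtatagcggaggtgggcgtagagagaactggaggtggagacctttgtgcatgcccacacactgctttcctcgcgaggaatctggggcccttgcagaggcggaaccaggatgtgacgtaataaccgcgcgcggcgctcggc
NDUFB8: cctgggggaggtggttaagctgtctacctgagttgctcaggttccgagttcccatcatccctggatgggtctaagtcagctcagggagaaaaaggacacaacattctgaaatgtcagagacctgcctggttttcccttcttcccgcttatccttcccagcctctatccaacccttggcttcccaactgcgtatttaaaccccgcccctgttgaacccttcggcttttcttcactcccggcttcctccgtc
UQCRC2: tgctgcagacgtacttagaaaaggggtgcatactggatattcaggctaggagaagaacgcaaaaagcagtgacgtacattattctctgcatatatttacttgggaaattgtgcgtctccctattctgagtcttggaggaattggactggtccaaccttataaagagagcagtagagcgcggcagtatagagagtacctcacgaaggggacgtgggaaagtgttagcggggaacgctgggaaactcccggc
COX6A2: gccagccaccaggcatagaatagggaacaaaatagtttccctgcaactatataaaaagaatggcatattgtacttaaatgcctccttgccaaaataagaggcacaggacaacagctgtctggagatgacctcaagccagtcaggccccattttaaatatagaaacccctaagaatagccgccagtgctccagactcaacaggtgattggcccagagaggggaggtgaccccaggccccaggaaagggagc

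COX6A1 and SDHD each held an NRF1 core and an ETS core on the reverse strand, NDUFS7 an NRF1 core and UQCRQ an ETS core. In SDHD the NRF1 core was found on both strands, and the capitals mark the overlapping matches together. NDUFB1, NDUFB6, NDUFB8, UQCRC2 and COX6A2 held no match in their stretches. Of the 7 members called lower, 3 held CGCATGCGC and 3 held CCGGAAG, against 9.8% and 25.5% of the 51 members. Counting either core, 4 of the 7 held a match and 3 did not. Among all tested members with a promoter, CGCATGCGC or CCGGAAG was in 9 of the 21 whose replicate 1 arrays lay below all others. Either core was in 0 of 4 that lay above and in 7 of 23 that overlapped. The share of all promoters with either core was not counted, and these groups come from a comparison chosen after seeing the data. NDUFB4 and NDUFS6 were the other members with CGCATGCGC. Their differences on replicate 1 were 0.28 ± 0.18 and -0.33 ± 0.27 log2 (SE, adjusted p = 0.388 and 0.486 on pair means, limma). A link between the cores and the differences on replicate 1 was not tested.

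The first question is whether activating the fusion altered the chain. In cells with PAX3-FKHR-ER, 0 of 52 members passed an adjusted p under 0.05 (limma, 12 arrays), with 0% of 13329 probe sets called. At an unadjusted p under 0.05 the counts were 0 members and 62 probe sets (0.465%). That fit leaves out the pairing of the arrays. With the replicate block over 12 arrays, limma again called 0 members. At an unadjusted p under 0.05 the blocked fit had 0 members, against 894 of 13329 probe sets. The median change was 0.01, against -0.01 over all probe sets, 30 of 52 lay above 0 against 47.1%, and the members ranged from -0.24 to 0.23. Their median absolute change was 0.080 log2, against 0.120 over all. By complex the medians were 0.01 for I, 0.06 for II, -0.05 for III and 0.05 for IV. In replicate pairs 1, 2 and 3 the member median was -0.05, 0.08 and -0.01, so it had no single sign.

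Replicates 2 and 3 alone, fitted with the pair as a block, gave narrower intervals. With only 2 residual degrees of freedom, this fit leans in part on the spread that limma shares across probe sets. There 186 probe sets were called, 1.4% of those tested, and 0 of them were members. The members' changes ran from -0.27 to 0.33 with a median of 0.03, and 2 had an unadjusted p under 0.05, against 11.8% of all probe sets. For all 52 the 95% interval lay within 1 log2 unit of 0, compared with 45 of 52 in the fit to 12 arrays. The median half-width was 0.31 in the paired fit.

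The members named here had one sign in all 3 pairs, as did 6 upward and 3 downward in total, against 13.2% and 14.9% of all probe sets. NDUFB1 had signals of 384, 695 and 805 without 4-OHT and of 393, 949 and 944 with it. The groups overlapped, and the difference was 0.23 ± 0.60 (SE, adjusted p = 1.00, limma). Replicates 2 and 3 with the block gave 0.33 ± 0.13 (adjusted p = 0.352). SDHA had 260, 223 and 247 without and 263, 263 and 304 with 4-OHT. It was the only one of the 52 members whose groups did not overlap, against 1.7% of all probe sets, at 0.17 ± 0.51 (adjusted p = 1.00). That standard error pools the spread of all 4 groups. The SD of the SDHA signals was 19.0 and 23.8 in the fusion groups without and with 4-OHT. In the vector groups it was 308 and 356. NDUFC1, an accessory subunit of complex I, stood at 0.23. NDUFA13, which belongs to complex I and is also known as GRIM-19, had 646, 725 and 713 without and 504, 602 and 659 with 4-OHT (-0.24 ± 0.30). UQCR11, a small subunit of complex III, had 886, 889 and 805 without and 646, 851 and 697 with it (-0.24 ± 0.28), and NDUFA5 was at -0.14. In NDUFA13 and UQCR11 the treated array was the lower one in all 3 pairs, but the groups overlapped when the pairing was ignored. Their standard errors of 0.30 and 0.28 come from the fit without the pairing. With the replicate block these were 0.17 for NDUFA13 and 0.11 for UQCR11, with adjusted p of 0.874 and 0.751 (limma). Neither gene passed the test.

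**Figure D4:**
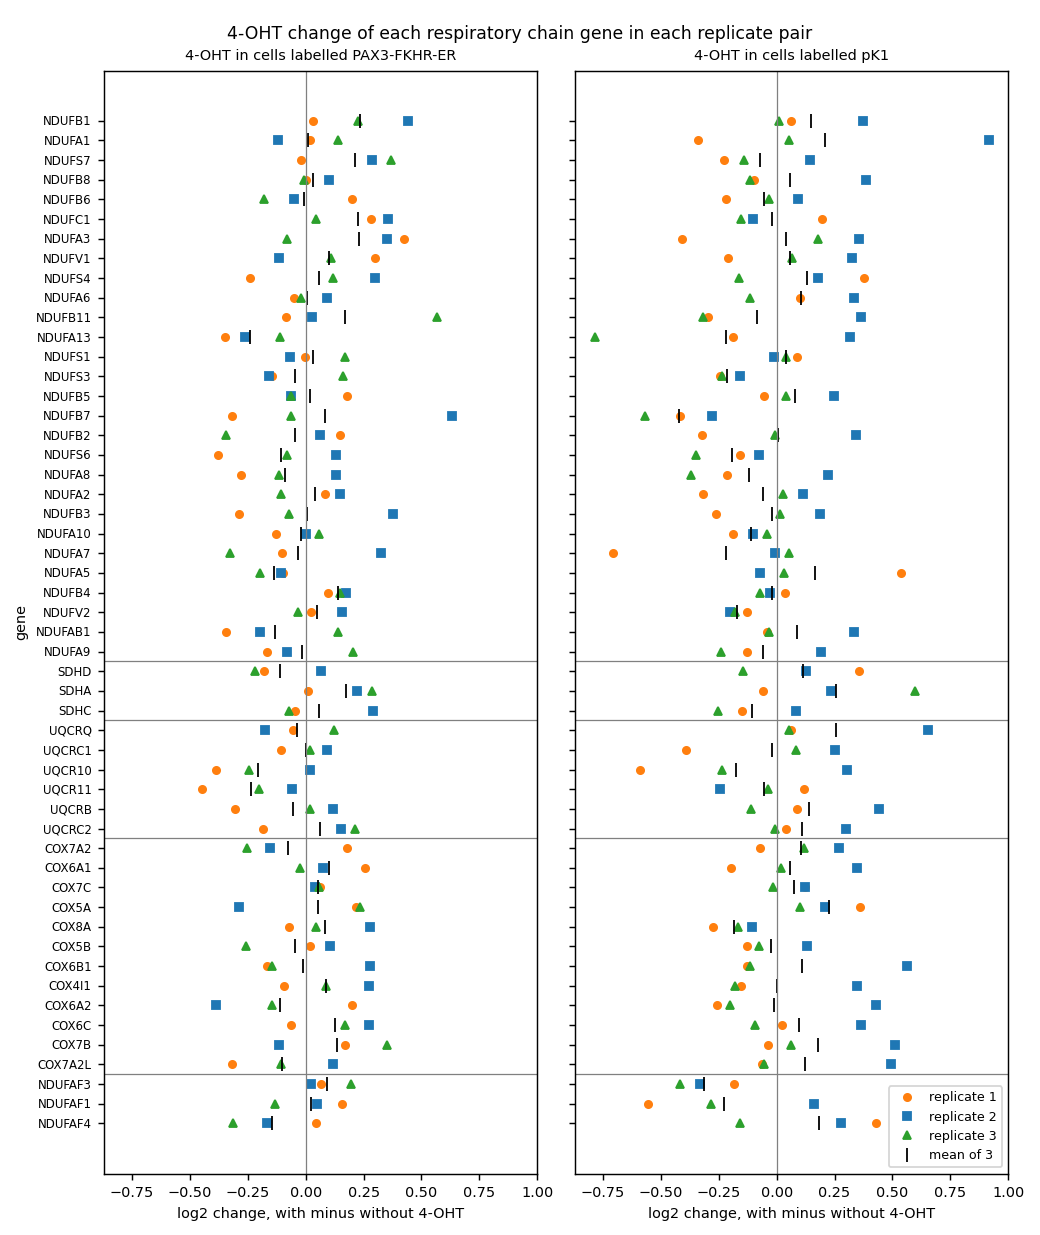
4-OHT change in log2 signal of each tested member in each replicate pair, for PAX3-FKHR-ER (left) and pK1 (right), with the mean of the 3 pairs as a tick. The points straddle 0 in both panels, and the pK1 replicate 2 points lie to the right for most genes, with a member median of 0.23.

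In cells with the empty vector, where 4-OHT acts without the fusion, 0 of 52 members passed (limma, 12 arrays; 0% of all probe sets). At an unadjusted p under 0.05 there were 0 members, against 0.54% of all. With the replicate block over 12 arrays, limma called 0 members. At an unadjusted p under 0.05 the blocked fit had 2 members, against 6.87% of all. The median was 0.00, against -0.03 over all, with 27 of 52 above 0 against 43.8%, and the range was -0.42 to 0.26. No member separated the groups, against 0.983% higher and 3.28% lower over all. The pair medians were -0.13, 0.23 and -0.07, so the 3 pairs disagreed in sign, and the positive one holds the array with the raised ACTB ratio. Replicates 2 and 3 in the paired fit called 0 of 52 members and 0% of all probe sets, with 3 members at an unadjusted p under 0.05 against 5.7%. All 52 intervals of that fit lay within 1 log2 unit of 0, against 43 of 52 in the fit to 12 arrays.

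NDUFB7, an accessory subunit of complex I, had the most negative difference, with signals of 158, 244 and 280 without 4-OHT and of 114, 198 and 183 with it. The groups overlapped, at -0.42 ± 0.28 (SE, adjusted p = 1.00, limma). NDUFAF3, a complex I assembly factor, had 163, 881 and 335 without and 142, 696 and 247 with 4-OHT (-0.31). NDUFS3, a core subunit of the arm that meets ubiquinone, stood at -0.21. Each was lower in every pair, but the NDUFAF3 signals differed more between replicates than between treatments. UQCRQ had 777, 1469 and 1243 without and 812, 2317 and 1292 with 4-OHT (0.26). COX5A, a subunit of complex IV, stood at 0.22 and NDUFB1 at 0.15. For UQCRQ and NDUFB1 the pair of replicate 2 gave the largest difference. One sign in all pairs was found for 3 upward and 7 downward members, against 12.6% and 16.6% of all probe sets.

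The difference between these responses asks whether 4-OHT acted otherwise with the fusion than with the vector, and it uses the same arrays. It was called for 0 of 52 members (limma, 12 arrays; 0% of all probe sets) and, in replicates 2 and 3 with the pair as a block, for 0 of 52, with 0.0525% of all called. At an unadjusted p under 0.05 there were 0 members over 12 arrays, against 0.293%, and 3 in the latter, against 9.85%. The median was 0.01, against 0.02 over all, with 26 of 52 above 0 against 53.1%, and the range was -0.33 to 0.51. The 95% interval lay within 1 log2 unit of 0 for 17 of 52 members over 12 arrays and for 49 in the paired fit. NDUFB7 was at the top, at 0.51 ± 0.39 (SE, adjusted p = 1.00), and at 0.71 in the paired fit (adjusted p = 0.428). NDUFAF3 followed at 0.41, with 143, 349 and 369 without and 150, 354 and 425 with 4-OHT in the fusion cells, so it was higher in every pair there and lower in every pair with the vector. Its adjusted p was 1.00, and 0.415 in the paired fit. NDUFS7 stood at 0.29, the assembly factor NDUFAF4 at -0.33, NDUFA5 at -0.30 and COX7A2L, which takes part in joining complexes III and IV, at -0.23. The 3 numbers shared a sign for 9 upward and 5 downward members, against 12.9% and 11.5% of all.

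The constructs were next compared without 4-OHT, and the arrays without 4-OHT also enter the comparisons above. Here 0 of 52 members passed (limma, 12 arrays; 0% of all probe sets), and 1 had an unadjusted p under 0.05, against 2.08%. In replicates 2 and 3 with the number as a block the count was again 0, with 0.0075% of all called, and 7 members had an unadjusted p under 0.05, against 9.75% of all. The member median was -0.09, against -0.01, with 21 of 52 above 0 against 49.1%. It was 0.11, -0.22 and -0.02 in numbers 1, 2 and 3, so replicate 1 and replicate 2 pointed opposite ways. Complex I was at -0.14, II at -0.29, III at -0.02 and IV at 0.03. The 95% interval lay within 1 log2 unit of 0 for 40 of 52 members over 12 arrays and for 38 in replicates 2 and 3, so the intervals of the others reach beyond that.

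NDUFA5, an accessory subunit of the hydrophilic arm of complex I, had the largest difference, with signals of 369, 311 and 332 with PAX3-FKHR-ER and of 214, 208 and 203 with pK1, all without 4-OHT. The 3 fusion arrays lay above the 3 vector arrays without overlap, as did 2.9% of all probe sets. The group means were 337 ± 29.3 and 208 ± 5.67 (SD, n = 3 each), and the difference was 0.65 ± 0.21 log2 (SE, 95% interval 0.20 to 1.11) with adjusted p = 1.00 in limma, and 0.61 with adjusted p = 0.390 in replicates 2 and 3. It did not pass the test. Its second probe set was under the filter, so a single probe set carries it.

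COX7A2, the widely expressed isoform of a complex IV subunit, had 755, 1877 and 1605 with the fusion and 798, 1344 and 991 with the vector (0.36; 0.58 with adjusted p = 0.377 in replicates 2 and 3). The groups overlapped. SDHD had 254, 375 and 424 against 172, 362 and 395, at 0.22, and NDUFAF4 was at 0.36. NDUFS7 was at -0.40, with 230, 331 and 355 against 240, 531 and 507, and NDUFV1, which binds NADH and flavin, at -0.24. NDUFA2, an accessory subunit, was the only member lower without overlap, against 3.08% of all, with 409, 422 and 431 against 452, 681 and 456 (-0.30). One sign in all 3 numbers was found for 8 upward and 6 downward members, against 12.4% and 13.3% of all.

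With 4-OHT, the fusion and vector cells again differed in 0 of 52 members (limma, 12 arrays; 0% of all probe sets), and in 0 of 52 when replicates 2 and 3 were fitted with the number as a block, where 0.158% of all probe sets were called. At an unadjusted p under 0.05 there were 0 members over 12 arrays, against 2%, and 3 in replicates 2 and 3, against 13%. The median was -0.04, against 0.02, with 21 of 52 above 0 against 52.8%, and in numbers 1, 2 and 3 it was 0.14, -0.32 and 0.04. Within 1 log2 unit of 0 lay 41 of 52 intervals over 12 arrays and 45 in replicates 2 and 3. NDUFA5 had 343, 288 and 287 with the fusion and 318, 197 and 208 with the vector, at 0.35 (0.47 with adjusted p = 0.349 in replicates 2 and 3). The groups overlapped through the first vector array. NDUFV2 was at 0.34 and COX7A2 at 0.18. UQCR11 stood at -0.35, COX7A2L at -0.31 and NDUFS4, an accessory subunit of complex I, at -0.21. In these arrays no member separated the constructs, against 3.18% higher and 2.12% lower over all probe sets. The same sign in all 3 numbers was found for 5 upward and 4 downward members, against 12.6% and 9.88%.

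**Figure D5:**
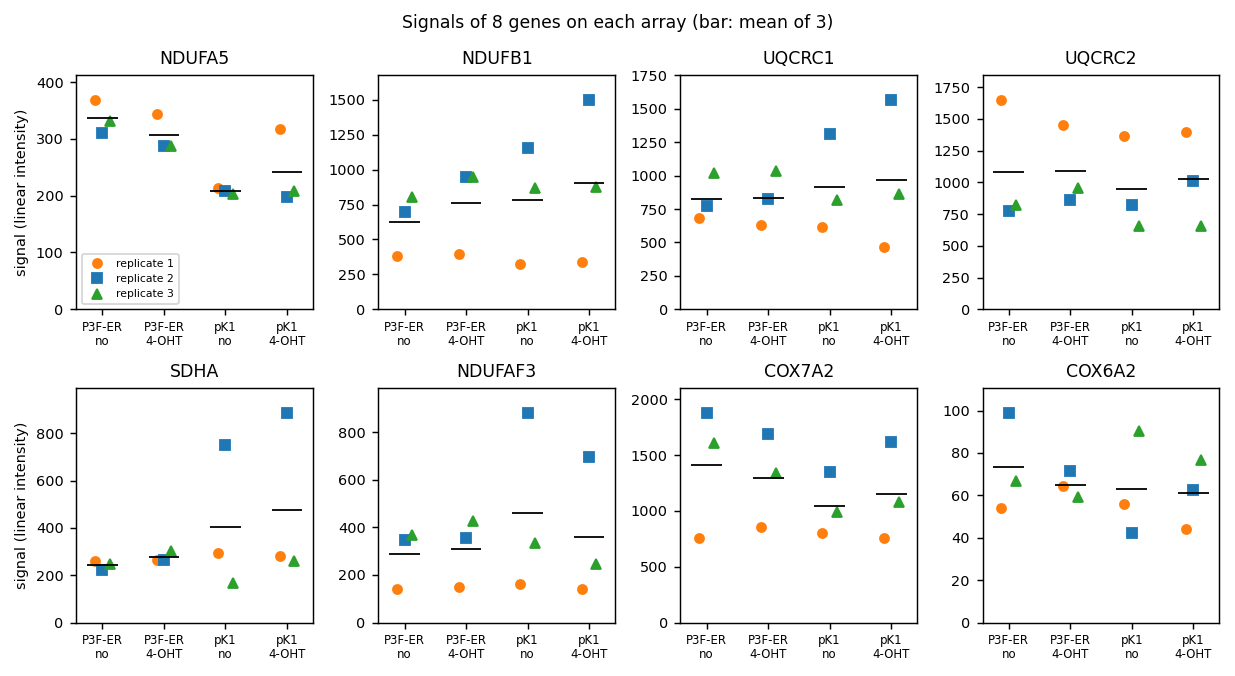
Signal on each of the 12 arrays for 8 genes, by group (P3F-ER is PAX3-FKHR-ER), with replicates 1, 2 and 3 marked separately and the group mean as a bar. NDUFA5 without 4-OHT shows 311 to 369 with the fusion above 203 to 214 with the vector, NDUFB1 has its replicate 1 points below all others, and UQCRC2 has them above.

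Isoforms of muscle and their counterparts were set beside each other for 4-OHT. COX6A2, the heart and muscle form of the COX6A subunit, had signals of 42.4 to 98.9 over the 12 arrays and differed with 4-OHT by -0.11 ± 0.28 (SE) in fusion cells. COX7A1, the muscle counterpart of COX7A2, was under the filter on the array means, at 1.54 to 10.7. COX4I1, the widely expressed COX4 isoform, had 1653, 1787 and 1776 without and 1550, 2160 and 1889 with 4-OHT in fusion cells (0.09). In vector cells it had 1501, 2126 and 2154 without and 1346, 2705 and 1896 with (0.00). NDUFS1, the largest core subunit of complex I, stood at 0.03 and 0.04 for 4-OHT in fusion and vector cells, UQCRC1 at 0.00 and -0.02 and SDHC, an anchor of complex II, at 0.06 and -0.11. None passed the test.

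Of the 13 members with several probe sets, 10 had more than 1 tested. Among these, the probe sets of a gene gave both signs for 7 genes for 4-OHT in fusion cells, 2 for 4-OHT in vector cells, 5 for the difference, 3 for the constructs without 4-OHT and 5 with it. The within-group standard deviation of a member had a median of 0.39 log2 over 12 arrays, against 0.38 for all, and of 0.27 within replicates 2 and 3, against 0.31.

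The genes around the chain gave 0 calls in the 5 comparisons, in the fit to 12 arrays and in replicates 2 and 3 with the block, over 15 genes of ATP synthase, 7 electron carriers and other entry points, 14 assembly factors, 12 enzymes of the TCA cycle and 12 regulators of mitochondrial biogenesis. At an unadjusted p under 0.05 a list had at most 1 gene over 12 arrays and at most 3 in replicates 2 and 3, the latter being 3 of 15 genes of ATP synthase for the constructs without 4-OHT, against 9.75% of all probe sets. With the replicate block over 12 arrays the highest counts were 4 of those 15, against 7.36%, and 4 of 14 assembly factors for 4-OHT in vector cells, against 6.87%. ATP5F1C, the gamma subunit of ATP synthase, came nearest, at -1.12 between fusion and vector with 4-OHT in replicates 2 and 3 (adjusted p = 0.0938, limma). The TCA enzyme SUCLG1 was at -0.77 there (adjusted p = 0.161). On replicate 1 against the rest, ATP synthase had a median of -0.40 with 12 of 15 lower, and the carriers -0.55 with 7 of 7. The assembly factors were at 0.10 with 5 of 14 lower, the TCA enzymes at -0.10 with 7 of 12 and the regulators at 0.05 with 5 of 12. The difference between these lists was not tested.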

How the data were processed

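RNA from 12 samples, 4 groups of 3, was read on 12 arrays. The deposited values are signal intensities on a linear scale, made by the authors; the submitters' processing notes name GCOS and MAS5, with versions not given in the sources used here. Of 22283 probe sets, 68 controls were left out. Genes were named from the array annotation where it gave a single symbol, and all 56 members matched RefSeq by Entrez identifier.

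The deposited signals had a trimmed mean of 150 on every array. They were taken as log2(signal + 16) without further rescaling, and the dimmest 40% of probe sets (mean signal under 36.7) were dropped, leaving 13329. Group means were fitted with limma 3.58.1 in R 4.3.3 (lmFit, eBayes with intensity trend), two-sided, with Benjamini-Hochberg adjustment over all probe sets in a comparison and a threshold of 0.05. The fit was tested on simulated data. Figures used matplotlib 3.10.9 in Python 3.11.15.

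Deviations from group means correlated between same-numbered arrays by 0.70 to 0.85 for the treatments and by 0.15 to 0.69 for the constructs, so the numbers were taken to pair the arrays. Fits with the replicate block, and of replicates 2 and 3 only, were run beside the first. With the block, replicates 2 and 3 left 2 residual degrees of freedom for 4-OHT and 3 for the constructs. The number of arrays limits precision.

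Genes were named by a rule: for each comparison, members past the threshold in the fit to 12 arrays or to replicates 2 and 3, and up to 3 in each direction, those of largest difference with 1 sign in all pairs, plus the isoform pairs and selected core subunits. The members, the lists and this rule were chosen with earlier results of these data known. The comparison of replicate 1 with the others, and each of its alternative fits, was chosen after seeing the data. Beside these, 13 other settings were tried, and each array was left out in turn.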

Additional observations from a re-analysis of the deposited data

Results flagged for a closer look

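NDUFAF3, a complex I assembly factor, differed by 0.41 log2 between its 4-OHT change in cells labelled PAX3-FKHR-ER and that in cells labelled pK1. All 3 pairs of the fusion cells lay above 0, but in replicate 2 only barely, with signals of 349 without and 354 with 4-OHT. All 3 pairs of the vector cells lay below 0, at -0.18, -0.33 and -0.42. The test of the difference gave adjusted p = 1.00 in limma over 12 arrays, 0.926 with the replicate block and 0.415 in replicates 2 and 3 with the block.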

How the results depend on the processing

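The count of respiratory chain genes past the threshold stayed at 0 in each of the 5 comparisons under the 25 alternatives run for each (24 for the difference), which include the replicate block, replicates 2 and 3 only and the omission of each array; the replicate block gave 0 in all 5. The smallest adjusted p of a named gene over all alternatives was 0.349. Leaving out 1 array moved the member median to between -0.081 and 0.16 for 4-OHT with PAX3-FKHR-ER, -0.24 and 0.20 for 4-OHT with pK1, -0.22 and 0.26 for their difference, -0.28 and 0.075 for the constructs without 4-OHT and -0.25 and 0.17 with 4-OHT. The comparison of replicate 1 with the others called 8 members, while 4.46% of all probe sets were called lower and 4.16% higher. Without the pK1 replicate 2 arrays it called 17 members, while the share of all probe sets called also rose, to 18.1%.

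Of 733 alternative values of the named genes, 23 reversed, in 15 of 30 results. With the mean of a gene's probe sets NDUFA5 was at 0.19 for 4-OHT with PAX3-FKHR-ER and at 0.10 for the difference, but its second probe set read 1.79 to 15.6, under the filter of 36.7, so these signs come from a dim signal. Leaving out 1 array, the range for 4-OHT with PAX3-FKHR-ER was -0.078 to 0.64 for NDUFB1 and -0.046 to 0.47 for NDUFC1. With pK1 it was -0.13 to 0.62 for UQCRQ, -0.086 to 0.54 for COX5A, -0.38 to 0.72 for NDUFB1 and -0.91 to 0.30 for NDUFAF3. For the difference it was -0.21 to 1.01 for NDUFAF3, -0.15 to 0.64 for NDUFS7 and -0.38 to 0.038 for COX7A2L. Without 4-OHT the constructs gave -0.13 to 0.43 for SDHD and -0.52 to 0.00058 for NDUFV1, and with 4-OHT -0.082 to 0.46 for COX7A2 and -0.41 to 0.055 for NDUFS4. The cause was not tested. The 95% interval of a member's 4-OHT change had a median half-width of 0.66 log2 over 12 arrays without the block and of 0.31 in replicates 2 and 3 with it.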
